A study of Mus musculus with 2 samples.

Results

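Immunoglobulin genes were compared between small-intestinal crypts of mice that lost Lpcat3 in the intestinal epithelium and crypts of their floxed controls. Members were chosen by name: every probe set whose annotation holds a heavy chain (Igh), kappa (Igk) or lambda (Igl) gene name, or Jchain, was taken, also where the annotation lists several genes. The rule took 53 of 45037 probe sets that are not array controls, of which 23 belong to the heavy chain locus, 25 to the kappa locus, 4 to the lambda locus and 1 to Jchain. A probe set is a group of short probes that reads 1 transcript or several related ones, and 13 of the 53 are annotated with several names. The names used are 28, and 27 of them were found in the RefSeq gene table of GRCm38.p6, which places the heavy chain locus on chromosome 12, kappa on chromosome 6, lambda on chromosome 16 and Jchain on chromosome 5.

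The knockout group carried the floxed alleles and a tamoxifen-activated Cre recombinase (Lpcat3 F/F, Villin-CreERT2), and the control group the floxed alleles without Cre (Lpcat3 F/F). The Villin promoter is active in the intestinal epithelium and not in lymphocytes. Mice of both groups were 8 to 10 weeks old at injection, received 1 mg of tamoxifen a day for 5 days, with crypts isolated 2 weeks afterwards. For each group the RNA of 5 mice was combined and read on 1 Affymetrix array each. With 1 array a group there is no spread between samples, no test and no p-value, and genotype, Cre, pool and array cannot be told apart.

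Antibodies are built from a pair of heavy chains and a pair of light chains, each with a variable region, joined in B cells from gene segments, and a constant region that sets the class. The gut wall holds many plasma cells, the antibody-secreting descendants of B cells, and most of these make IgA. Plasma cells link IgA into dimers with the joining chain, and the polymeric immunoglobulin receptor of the crypt epithelium carries the dimers into the gut lumen. Immunoglobulin RNA is made by cells of the B lineage and not by the epithelium, and in a bulk sample more such cells and more RNA per cell cannot be told apart.

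Lpcat3, the deleted gene, had a signal of 928 in the knockout pool and 4691 in the control pool, which is 5.06-fold lower in knockout. Signals are MAS5 intensities, and a floor of 92.9, the median of all values that are not array controls, was used as the limit of measurement. At or above it were 22300 probe sets on the knockout array and 22737 on the control array. A value below the floor was raised to it, so a probe set above the floor on 1 array only gives a bound, written "at least". Where 1 gene has several probe sets, their log2 ratios scattered with an SD of 0.28 (1.21-fold, 4582 genes), which serves as the technical error and leaves out the spread between mice and pools. The 12 genes of the epithelium list, among them Epcam, Cdh1 and Vil1, reached the floor in both pools.

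The immunoglobulin probe sets that could be measured on both arrays were mostly higher in the knockout pool. Of 12 such probe sets, 11 were higher, beside 46.0% of all 21026 probe sets of the array that could be measured so, and 1 was lower. At least 2-fold higher were 10 of the 12, against 1.09% of the 21026, and none was 2-fold lower, against 1.71%. The 10 carry only 5 different annotations (Igha, Ighm, Jchain, Igkv8-30 and the kappa constant group), so they are not 10 separate genes. A further 7 members were above the floor on the knockout array only, and none on the control array only. Those 7 passed through the array on which they are high and give no support to a direction. Counted together, 13 of 19 were at least 2-fold higher (1.21% of 24011 probe sets above the floor on at least 1 array) and none was 2-fold lower (1.93%). Their median log2 ratio was 1.52, beside -0.037 over all 24011, and 1.80 for the 12 on both arrays, beside -0.034 over the 21026. Without the _s_at and _x_at types of probe set, which can bind several related transcripts, 3 of the 4 left on both arrays were at least 2-fold higher. With bounds these were 4 of 9, beside 1.13% of 20877 probe sets above the floor on at least 1 array under that filter. With 1 probe set per annotation 5 of 6 on both arrays were at least 2-fold higher. With bounds these were 8 of 10, beside 1.42% of 11865. The filtered shares on both arrays were not computed.

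**Figure D1:**
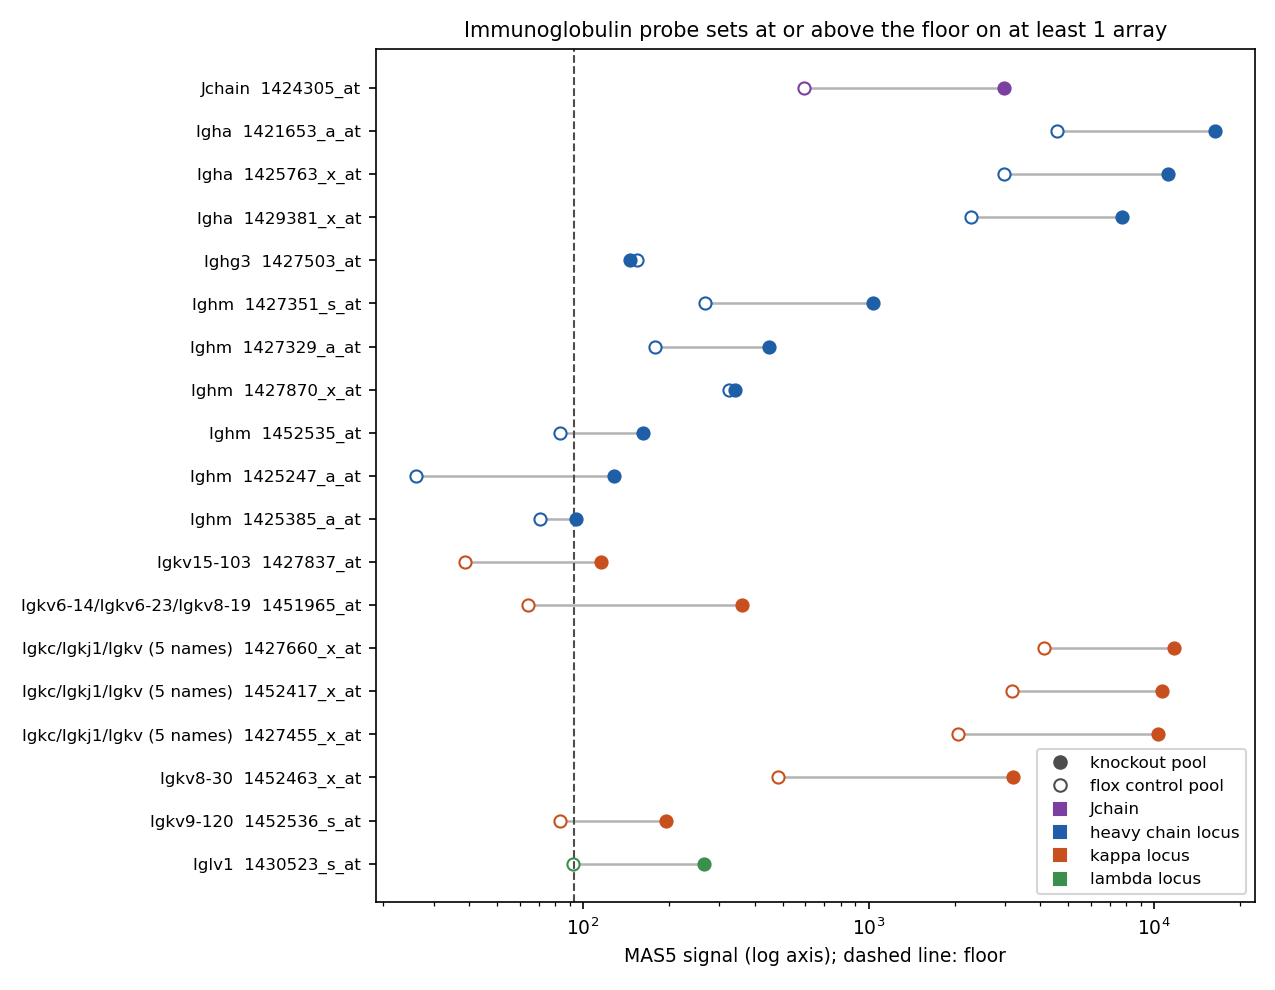
MAS5 signal (log axis) of the 19 immunoglobulin probe sets at or above the floor of 92.9 (dashed line) on at least 1 array, with the knockout pool as filled and the flox control pool as open circles. Igha, the kappa constant group, Igkv8-30 and Jchain lie well to the right in the knockout pool, while Ighg3 and 1 Ighm probe set hardly differ.

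The IgA heavy chain gave the most even result. Igha encodes the constant region of the alpha heavy chain and is read by 3 probe sets. The first (1421653_a_at) had a signal of 16319 in the knockout pool and 4585 in the control pool, 3.56-fold higher. The second (1425763_x_at) had 11214 in knockout and 2974 in control, 3.77-fold higher. The third (1429381_x_at) had 7743 in knockout and 2286 in control, 3.39-fold higher. The log2 ratios of these 3 probe sets spanned only 0.16, less than the error SD of 0.28, so the technical error does not tell them apart. All 3 were among the 33 highest ratios of the 21026.

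Jchain, which encodes the joining chain of dimeric IgA and pentameric IgM, is the only annotation of 1 probe set (1424305_at). Its signal was 2974 in the knockout pool and 593 in the control pool, 5.02-fold higher (log2 ratio 2.33), the 15th highest of the 21026. The ratio exceeded the Igha median by 0.50 on the log2 scale, against an error SD of 0.39 for a difference between a pair of probe sets. Jchain is the only one of the 28 names with upstream sequence in the RefSeq promoter table. The 250 bases before its start, chr5:88527898-88528147 on the minus strand of GRCm38.p6, are shown because Jchain is expressed with the immunoglobulin chains in plasma cells. Capitals mark E-boxes (CANNTG, which reads alike on both strands), a motif bound by basic helix-loop-helix factors, among them E-proteins of the B lineage.
Jchain upstream: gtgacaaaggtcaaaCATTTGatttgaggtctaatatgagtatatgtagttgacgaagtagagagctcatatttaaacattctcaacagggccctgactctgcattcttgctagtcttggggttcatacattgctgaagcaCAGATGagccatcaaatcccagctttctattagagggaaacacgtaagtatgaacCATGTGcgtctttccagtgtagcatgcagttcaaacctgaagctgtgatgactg
The window holds 3 E-boxes, whose first bases lie 235, 109 and 54 bases before the start. E-boxes are common letters: 66.2% of 32851 windows of the same length hold at least 1. The octamer ATTTGCAT, known from promoters of immunoglobulin variable segments, was searched on both strands, and its letters are not in this window. It occurs in 1.60% of all windows.

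The kappa light chain was higher in the knockout pool by each of its 3 constant region probe sets. These 3 are annotated with Igkc, the kappa constant region, together with Igkj1 and the variable segments Igkv6-23, Igkv4-53 and Igkv8-30, and their signal cannot be divided between the 5 names. The first (1427660_x_at) had 11781 in the knockout pool and 4109 in the control pool, 2.87-fold higher. The second (1452417_x_at) had 10687 in knockout and 3182 in control, 3.36-fold higher. The third (1427455_x_at) had 10299 in knockout and 2055 in control, 5.01-fold higher. Their log2 ratios spanned 0.81, more than the technical error, although they share an annotation. All have identifiers that end in _x_at.

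Variable segments of the kappa locus were mostly too dim to be measured. Of 22 probe sets annotated with variable segments alone, 18 were below the floor on both arrays. Igkv8-30 (1452463_x_at) had 3199 in the knockout pool and 480 in the control pool, 6.66-fold higher (log2 ratio 2.74), the highest ratio of any member and the 8th highest of the 21026. Igkv8-30 is also among the names of the 3 constant region probe sets. The probe set shared by Igkv6-14, Igkv6-23 and Igkv8-19 (1451965_at) had 361 in knockout and 64.2 in control, at least 3.89-fold higher. Igkv9-120 (1452536_s_at) had 195 in knockout and 82.9 in control, at least 2.10-fold higher, while its other probe sets were below the floor on both arrays, the brighter (1460423_x_at) with 67.9 in knockout and 67.0 in control. Igkv15-103 (1427837_at) had 116 in knockout and 38.5 in control, at least 1.25-fold higher. Along the chromosome, segments near and far from the joining segments were both among these 4. Of the 162 Igkv genes in the RefSeq table, 31 lie between Igkv8-30 and Igkj1, and 14 to 23 between Igkj1 and the 3 segments of the shared probe set. Between Igkj1 and Igkv15-103 lie 123, and 142 lie between Igkj1 and Igkv9-120.

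The IgM heavy chain gave a mixed picture. Ighm, the constant region of the mu heavy chain, is the only annotation of 11 probe sets, of which 3 reached the floor in both pools, 3 in the knockout pool alone and 5 in neither. The highest ratio (1427351_s_at) came from 1036 in the knockout pool and 268 in the control pool, 3.87-fold higher. The next (1427329_a_at) had 447 in knockout and 179 in control, 2.51-fold higher. Another probe set (1427870_x_at), with 341 in knockout and 325 in control, was 1.05-fold higher, within the technical error. The log2 ratios of these 3 therefore spanned 1.88, and which part of the gene each one reads was not analysed here. The 3 bounds were at least 1.75-fold higher (1452535_at, 163 in knockout and 82.8 in control), at least 1.38-fold higher (1425247_a_at, 128 and 25.9) and at least 1.02-fold higher (1425385_a_at, 94.8 and 70.6). The last lies just inside the floor.

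The IgG3 heavy chain had nearly equal signals in the probe set that could be measured. Ighg3, the constant region of the gamma-3 heavy chain, is the only annotation of 4 probe sets, and 1 of them (1427503_at) was above the floor, with 146 in the knockout pool and 154 in the control pool. Its log2 ratio of -0.077 lay within the technical error and was 0.0057 after quantile normalisation, so it has no settled sign. The other 3, and the 5 heavy chain probe sets whose annotation includes the variable segments Ighv14-2 or Ighv1-72, were below the floor on both arrays. Of these 8, the probe set for Ighv14-2 alone (1455530_at) was the closest to the floor, with 88.8 in knockout and 55.3 in control.

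Lambda light chains were read less well. Iglv1, a lambda variable segment, had 265 in the knockout pool and 92.2 in the control pool by 1 probe set (1430523_s_at), at least 2.85-fold higher, with the control signal just below the floor. The other 3 lambda probe sets, among them the one that also names the constant region Iglc1 (76.4 in knockout and 64.3 in control), were below the floor on both arrays. Over all loci 34 members were below it on both arrays, 13 heavy chain, 18 kappa and 3 lambda, with signals of 1.35 to 88.8 in knockout and 2.14 to 67.0 in control. These members have no usable ratio.

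**Figure D2:**
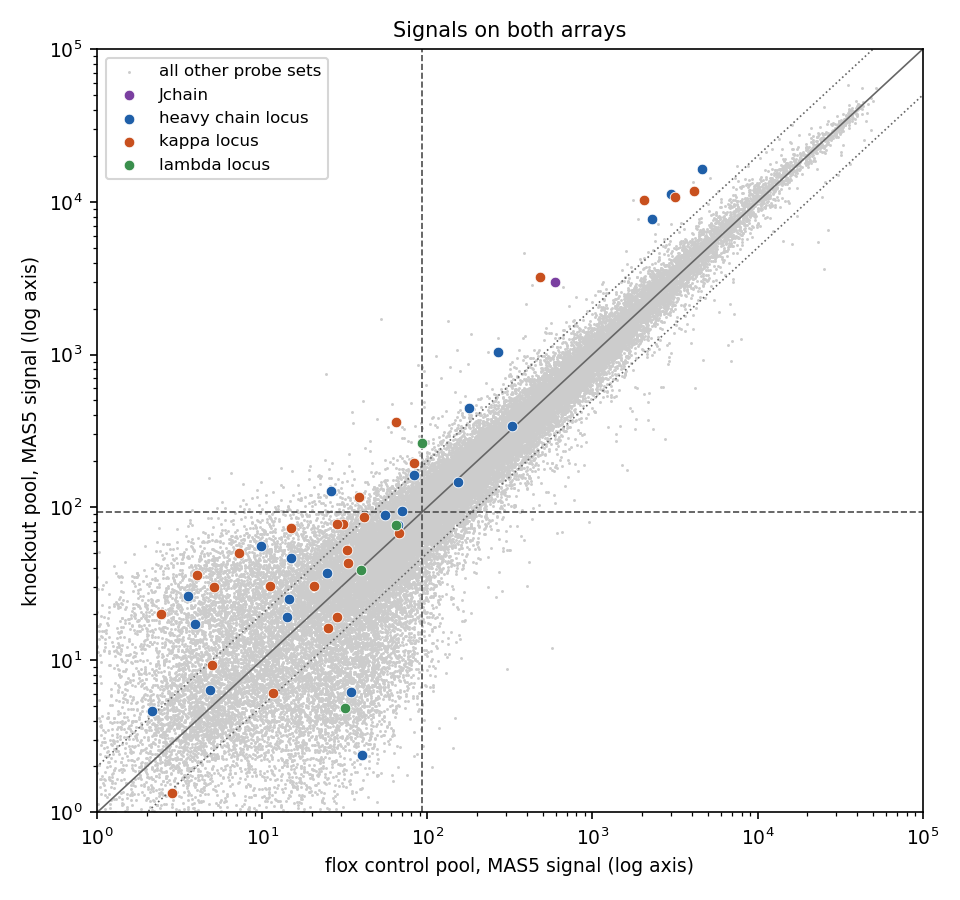
Signal in the knockout pool (vertical) against the flox control pool (horizontal), both on log axes that begin at 1, for all probe sets other than array controls (grey) and the 53 immunoglobulin probe sets (coloured by locus). The solid line marks equal signals, dotted lines 2-fold differences and dashed lines the floor of 92.9. Of the 12 coloured points right of and above the floor, 10 lie above the upper 2-fold line.

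Ordered by log2 ratio, the 12 members on both arrays ran from Igkv8-30 at 2.74, through Jchain at 2.33, Igha at 1.76 to 1.92 and the kappa constant group at 1.52 to 2.32, to Ighm at 0.072 to 1.95 and Ighg3 at -0.077. Of the 11 gaps between neighbours in that order, 2 exceeded the error SD of a difference, 0.39. These were the gap of 1.25 between the second and the lowest Ighm probe set, and the gap of 0.41 below Igkv8-30. Other neighbours in the order do not differ beyond that error, though members further apart in it can.

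Other genes of the cells that make immunoglobulin had median log2 ratios nearer to 0. Of 30 measured probe sets of 15 plasma cell genes, 6 were at least 1.5-fold higher in the knockout pool (5.30% of all measured probe sets were) and 1 was 1.5-fold lower (8.22%), with a median log2 ratio of 0.17. Of the 28 on both arrays, 22 were higher by any amount (46.0% over all such probe sets) and 6 were lower. Summed over the 30 measured probe sets, the signal was 75890 in the knockout pool and 64591 in the control pool. Bright probe sets weigh most in these sums, among them those of Xbp1 with 13486 and 15133 in knockout and 11993 and 13291 in control. Dim genes add little to them. Fkbp11, a prolyl isomerase of the secretory pathway, had 507 in knockout and 202 in control, 2.51-fold higher. Mzb1, an endoplasmic reticulum protein that helps to assemble IgM in B and plasma cells, had 333 in knockout and 209 in control, 1.59-fold higher. Pou2af1, the B cell coactivator that works with octamer-binding factors, had 169 in knockout and 45.4 in control, at least 1.82-fold higher. Prdm1, the transcription factor that drives plasma cell differentiation, was 1.54-fold higher (214 in knockout, 139 in control). Creld2, an endoplasmic reticulum stress gene that many cell types express, was 1.84-fold higher.

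Other plasma cell genes mostly had smaller or opposite differences. The 4 probe sets of Xbp1, a transcription factor needed for secretion in plasma cells and also active in secretory epithelium, had log2 ratios of 0.17 to 0.27. Sdc1, a plasma cell surface marker that epithelium shares, had -0.031, 0.053 and 0.61 by its 3 measured probe sets. The last, 1.53-fold higher, is 1 of the 6 probe sets counted above as at least 1.5-fold higher. Sel1l, a part of the machinery that clears misfolded proteins from the endoplasmic reticulum, had -0.018 to 0.50 by 5 probe sets. Derl3 stood at 0.011, and Tent5c, a polymerase that stabilises immunoglobulin RNA, was the 1 gene 1.5-fold lower (284 in knockout and 444 in control, log2 ratio -0.65). Irf4, Tnfrsf17, Slamf7, Ccr10 and Eaf2 were below the floor on both arrays.

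B cell genes went both ways. Of 12 measured probe sets, each of a different gene, 2 exceeded 1.5-fold in each direction, and the median log2 ratio was 0.15. Over all measured probe sets 5.30% were 1.5-fold higher and 8.22% lower. Of the 9 on both arrays, 5 were higher by any amount (46.0% over all such probe sets) and 4 lower. Cd79b, a signalling subunit of the B cell receptor, had 277 in the knockout pool and 125 in the control pool, 2.21-fold higher. Ms4a1, which encodes CD20, had 320 in knockout and 149 in control, 2.14-fold higher. Cd79a, the partner of Cd79b, was near the floor on both arrays with 104 in knockout and 95.5 in control. Cd22 stood at a log2 ratio of 0.37 and Blnk at 0.18. Bank1, Blk and Fcer2a reached the floor in the knockout pool alone, with bounds of at least 1.38-fold, 1.23-fold and 1.04-fold higher. Cd74, the invariant chain of MHC class II, was 2.78-fold lower (1468 in knockout, 4084 in control), and Spib, a transcription factor of B cells and of some epithelial cells, 1.90-fold lower (318 in knockout, 604 in control). Cd72, a coreceptor of B cells, stood at -0.55 (148 in knockout, 217 in control) and Cd37, a leukocyte tetraspanin, at -0.35 (115 in knockout, 147 in control). The B cell factors Pax5 and Ebf1 were below the floor on both arrays, as were Cr2 and Fcrla. Summed over the 12 probe sets, the signal was 5798 in knockout and 7943 in control. Cd74 alone gave 1468 of this in knockout and 4084 in control, more than the whole difference between the sums.

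Genes that build or move antibodies without encoding them went both ways. Pigr, the receptor that carries dimeric IgA across the epithelium, had 28746 and 36861 by its 2 probe sets in the knockout pool and 31094 and 35654 in the control pool, log2 ratios of -0.11 and 0.048. Of 11 measured probe sets for immunoglobulin transport and Fc receptors, 2 were at least 1.5-fold higher (5.30% over all measured probe sets) and 2 were lower (8.22%). Those higher were both of Fcgr2b, the inhibitory IgG receptor (log2 ratios 0.66 and 1.24; another lay at the floor). Those lower were Fcer1g, the signalling chain of several Fc receptors (194 in knockout and 724 in control, 3.73-fold lower), and 1 of the 2 probe sets of Trim21. Of 9 measured probe sets for rearrangement and class switch, none was 1.5-fold higher (5.30% over all measured probe sets) and 1 was lower (8.22%), the mismatch repair gene Msh6 at -0.76, counts near those shares. Rag1, Rag2 and Dntt, which act in developing lymphocytes, were below the floor on both arrays. Among surrogate light chain and pre-B genes 3 probe sets were measured, each on 1 array only: Vpreb3 at least 1.44-fold higher, Igll1 at least 1.27-fold lower and Il7r at least 1.48-fold lower.

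Signals that attract or sustain antibody-secreting cells had few probe sets past 1.5-fold. Of 12 probe sets of 8 genes, none was at least 1.5-fold higher (5.30% over all) and 2 were lower (8.22%), and the median log2 ratio was -0.12. Both that were lower read Ccr9, the gut-homing chemokine receptor, at least 2.05-fold (70.8 in knockout, 190 in control) and 1.62-fold (222 in knockout, 360 in control). Its ligand gene Ccl25 stood at -0.074 by its bright probe set (16496 in knockout, 17363 in control). Ccl28, which attracts IgA plasma cells, had log2 ratios of -0.58 to 0.020 by 3 probe sets. Tnfsf13b, which encodes the B cell survival factor BAFF, stood at 0.19, and its receptor gene Tnfrsf13c was at least 1.39-fold higher.

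**Figure D3:**
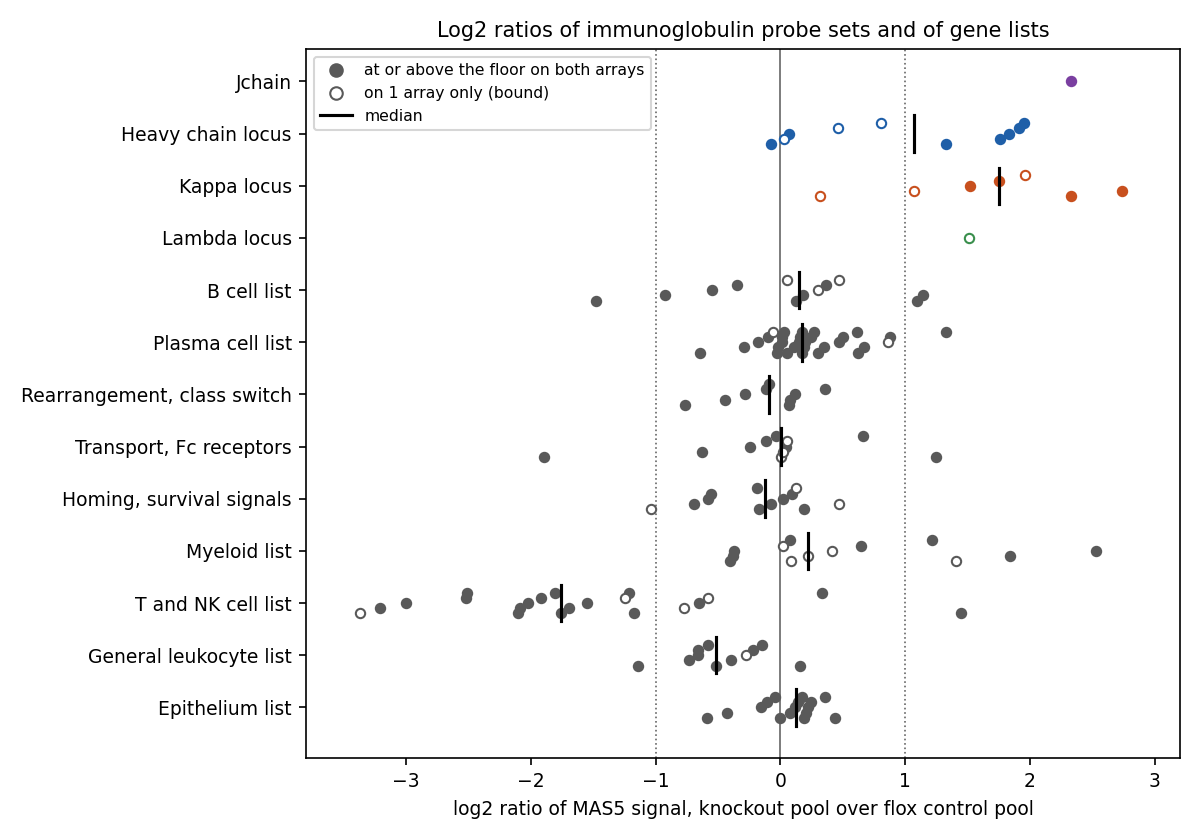
Log2 ratio of signal, knockout pool over flox control pool, of each measured probe set for the 4 immunoglobulin groups and for lists of other genes. Filled circles were above the floor on both arrays, open circles on 1 array only, bars mark medians and dotted lines 2-fold differences. Jchain, 6 of 7 kappa and 5 of 10 heavy chain probe sets lie right of the upper 2-fold line, as does the lambda bound. Of the filled circles, 4 of 4 kappa and 5 of 7 heavy chain probe sets do. The plasma cell and B cell lists centre on 0.17 and 0.15, and the T and NK cell list lies left at a median of -1.76.

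Markers of other cells moved with the same pair of arrays. Of 21 measured probe sets of T and natural killer cell genes, 18 lay 1.5-fold or more lower in knockout (8.22% over all measured probe sets). Only 1, of Zap70, was 1.5-fold higher (5.30%). On both arrays 17 were measured, with 15 at least 1.5-fold lower (1611 of all 21026) and 1 higher (1057 of the 21026). The other 4 were above the floor on the control array only and give no support to a direction. Over the 21 the median log2 ratio was -1.76, and the summed signal was 12138 in knockout and 48696 in control. Cd4, Cd5, Cd8b1 and Klrk1 of that list were below the floor on both arrays. Of 11 measured probe sets of general leukocyte genes, 4 were at least 1.5-fold lower (8.22% over all) and none was higher (5.30%). Their median was -0.52, with summed signals of 3922 in knockout and 6010 in control. Of 16 probe sets of the epithelium list, 15 lay within 1.5-fold, beside 20764 of all 24011 measured probe sets. The median of the list was 0.13 (sums of 309297 in knockout and 291738 in control). Stromal, vessel and blood genes were largely unmeasured, with 9 of the 12 genes on the array below the floor on both, among them Col1a1, Pecam1 and Hba-a1. Acta2 was measured on both arrays by 1 probe set, with 203 in knockout and 120 in control, 1.69-fold higher. Col1a2 was at least 1.25-fold higher and Des at least 1.62-fold lower, each above the floor on 1 array only. The part of these cell markers in the immunoglobulin values was not tested. As a check on RNA quality, the signal ratio between the 3' and 5' ends of the transcript was 1.64 in knockout and 1.98 in control for Actb, and 0.742 in knockout and 0.785 in control for Gapdh. The 18 hybridisation controls differed by at most 0.086 on the log2 scale, while 18S ribosomal RNA, read by 3 control probe sets, had log2 ratios of 0.56 to 0.89, higher in knockout. The part of RNA quality in the immunoglobulin values was not tested.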

How the data were processed

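Each probe set has 1 linear intensity per array in the table deposited by the authors, computed with MAS5 according to the submitters' processing notes, which give no version or options. Trimmed by 2% at either end, the mean was 500.0 on both arrays, so signals were used as deposited. The array has 45101 probe sets, 64 of them controls; 34945 carried 1 gene symbol, 932 several and 9160 none here. Symbols of list genes were updated through Entrez identifiers to GRCm38.p6 for 34741 probe sets. Values below the floor (50th percentile, 92.9) were raised to it and the log2 ratio, knockout over control, was taken per probe set with Python 3.11.15, numpy 2.4.6 and pandas 2.3.3. Medians and counts past 2-fold and 1.5-fold describe the members, since 1 array a group allows no test; the number of arrays limits the precision. The functions were tested on simulated data. Members, lists and alternatives were chosen with earlier results of these data known. Named were measured constant region and joining chain probe sets, the 10 highest and 10 lowest of the other measured members, and list genes. The design text names a smaller array of the same family; the annotation used matches the deposited identifiers. No coordinates of probe sets are given, because no build is named for the array.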

Additional observations from a re-analysis of the deposited data

How the results depend on the processing

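No paired analysis was possible because there is 1 array for each genotype, and for that reason no array could be left out. Under the 9 alternatives, 73 of 93 recomputed values stayed close to the main one (medians within the technical SD of 0.28, counts within 1.5 times). No result with a main value larger than that SD changed sign. The B cell list median, below that SD at 0.15 in the main setting, did change sign at the 70th percentile floor. The count of members 2-fold lower was 0 under each. Counts were compared without regard to how many probe sets entered. Members 2-fold higher were 13 of 19 in the main setting (1.21% over all probe sets measured so). They were 19 of 36 at the 30th percentile floor (2.78%) and 9 of 12 at the 70th (0.868%). With a pseudocount equal to the floor they were 10 of 53 (0.395%). The Jchain log2 ratio stayed between 2.16 and 2.36 and the plasma cell median between 0.13 and 0.24. With the floor at the 30th percentile the median log2 ratio of measured members was 1.07 (main 1.52), by locus 0.69 for heavy chain (main 1.07), 1.16 for kappa (main 1.75) and 0.25 for lambda (main 1.51), and 1.42 for members on both arrays, since more dim probe sets enter. The main locus medians include bounds from the knockout array only: 3 of 10 heavy chain, 3 of 7 kappa and the 1 lambda probe set. Such bounds give no support to a direction. On both arrays the main medians were 1.76 for heavy chain and 2.04 for kappa, with no lambda probe set. At the 70th percentile the heavy chain median was 1.73, and that of the B cell list was -0.46 over 4 probe sets (main 0.15). A pseudocount equal to the floor, which takes in all 53 members and shrinks dim ratios, gave medians of 0.29 over all, 0.20 for heavy chain, 0.41 for kappa and 0.049 for lambda. Without _s_at and _x_at probe sets 4 of 9 members were 2-fold higher (3 of those on both arrays), beside 1.13% of all probe sets measured under that filter. The medians were then 0.81 over all members, 0.64 for heavy chain and 1.14 for kappa. With 1 symbol only the kappa median was 1.07. With 1 probe set per annotation 8 of 10 members were 2-fold higher (5 of those on both arrays), beside 1.42% of all measured so. The heavy chain median was then 1.83. The alternative on members above the floor on both arrays was chosen after seeing the data. Lambda has no value without _s_at and _x_at probe sets or at the 70th percentile, where none was measured.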

Other observations

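Probe sets with an immunoglobulin-related name that the naming rule leaves out gave few further values. Of 4 probe sets annotated only Igk, with no segment named, 1 (1452557_a_at) was above the floor, with 649 in the knockout pool and 225 in the control pool, 2.88-fold higher, and the other 3 were below it on both arrays. Ighmbp2, a helicase gene that shares only the first letters of its name, had 97.0 in knockout and 102 in control by the 1 probe set above the floor on both arrays.

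Myeloid genes included members that were higher in the knockout pool. Of 13 measured probe sets, 5 were at least 1.5-fold higher (5.30% over all measured probe sets) and none was lower (8.22%), with a median log2 ratio of 0.22. However, 5 of the 13 were above the floor on the knockout array only, C1qa among them, and give no support to a direction. Of the 8 on both arrays, 4 were at least 1.5-fold higher (1057 of all 21026) and none was lower (1611 of the 21026). The 3 probe sets of Csf1r, the receptor of macrophage colony-stimulating factor, differed among themselves at 0.65, 1.21 and 2.53. Mpeg1, a pore-forming protein of macrophages, had 382 in knockout and 107 in control, 3.58-fold higher, and C1qa, a complement subunit made by macrophages, had 246 in knockout and 41.9 in control, at least 2.64-fold higher. Lyz2 (-0.38), Cd14 (-0.40) and Itgax (-0.37) of the same list had lower signals in knockout, and Itgam, C1qc and Cx3cr1 were below the floor on both arrays.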
